A study of Homo sapiens with 9 samples.

Results

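The histone-modifying enzymes are the proteins that add or remove chemical groups on histones. A total of 47 genes for such enzymes and their catalytic complexes were followed in DU145 cells with *FZD6* knockdown. The genes were taken by name from a list and not by their expression. The list leaves out enzymes of lysine 4 of histone H3, but not all of them, since its member *KDM1A* can act on this residue. The 47 genes comprise 21 methyltransferases, 9 acetyltransferases, 9 deacetylases and 8 demethylases, among 27902 genes with an entry in the tables. DU145 cells are a line derived from a human prostate cancer. There were 9 RNA-seq libraries, all of which the labels give as wild type (WT) in genotype: 3 with a scrambled shRNA (scramble), 3 with a first shRNA against *FZD6* (shRNA1) and 3 with a second one (shRNA2). *FZD6* encodes a frizzled receptor for Wnt ligands. The methods describe a constitutive and an inducible lentiviral vector for the shRNAs, and do not say which of them these libraries carried or whether the cultures were clones. The labels call the libraries of a group a triplicate and do not say whether they came from separate cultures, so the p-values measure the spread between these libraries, which may be technical.

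Acetylation of histone tails by acetyltransferases opens chromatin and is removed by deacetylases. Methylation has effects that depend on the residue: on lysines 9 and 27 of histone H3 it marks silenced chromatin, and on lysine 36 it marks the bodies of transcribed genes and keeps cryptic promoters inside them silent. Most of these enzymes are part of large complexes with many shared subunits. EZH2, the catalytic subunit of the Polycomb repressive complex PRC2, is the member best known in prostate cancer, where it is abundant in advanced disease.

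All values are FPKM, the number of fragments scaled to transcript length and to the size of the library, summed over the RefSeq transcripts of a gene. The filter for the test was an average of 1 FPKM or more over all libraries, which each of the 47 members passed. They were among 12509 tested genes, over which the p-values of limma were adjusted by the Benjamini-Hochberg method, with values on the log2(FPKM + 1) scale. A gene is called lower or higher where the adjusted p was under 0.05. The confidence bounds in the tables gave an estimated depth of 31.8 to 39.9 M fragments, and for each member they correspond to a counting error of at most 5.59% in a library. *FZD6* fell in the knockdown libraries by 1.12 on the log2 scale (SE 0.085, limma adjusted p = 0.000490). Of the epithelial markers, *KRT8* was at 202 to 238 FPKM, *KRT18* at 260 to 296 FPKM and *EPCAM* at 17.3 to 23.4 FPKM, and *CDH1* was lower at 3.38 to 5.02 FPKM. The prostate luminal genes *KLK3*, *KLK2* and *TMPRSS2* were at no more than 0.0476 FPKM. Of 11 markers of leukocytes, endothelial cells and fibroblasts, 10 were at no more than 0.455 FPKM and *CD14* was at 0.653 to 1.204 FPKM. In RNA from a whole culture, a lower level in every cell and a loss in some of the cells cannot be told apart.

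The levels of the members covered a wide range. *PRMT1*, the main enzyme for asymmetric arginine methylation, was highest at 137 ± 5.98 FPKM (SD, n = 3) with scramble, and *HDAC4*, a class II deacetylase, was lowest at 2.84 ± 0.0722 FPKM (SD, n = 3). The median scramble level was 14.5 FPKM for methyltransferases, 12.2 FPKM for acetyltransferases, 16.2 FPKM for deacetylases and 11.7 FPKM for demethylases.

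In *FZD6* knockdown cells, 14 of the 47 enzymes were lower and 5 were higher. The enzymes that fell were the H3K36 methyltransferases *ASH1L*, *SETD2*, *NSD1* and *NSD2*, the H3K9 methyltransferase *EHMT1*, the acetyltransferases *EP300*, *CREBBP* and *KAT6B*, the deacetylases *HDAC4* and *HDAC5*, and the demethylases *KDM2A*, *KDM2B*, *KDM3B* and *KDM4B*. Those that rose were the arginine methyltransferases *PRMT1* and *PRMT5*, the PRC2 subunit *EED*, the H3K9 methyltransferase *SUV39H1* and the acetyltransferase *KAT5*. Of all 12509 genes, 7.1% were called lower and 13.5% higher. The changes were small, between a fall of 27.8% in *ASH1L* and a rise of 18.7% in *PRMT5*. Every knockdown library was below every scramble library in 15 members, against 9.46% of all genes, and above every scramble library in 5 members, against 16.4% of all genes. Fewer members were called with 1 scramble library left out: 8, 6 and 12 without scramble replicate 1, 2 and 3. Over all 12509 genes these omissions left 1181, 997 and 1520 called, against 2578 with all libraries. When each library's trend in transcript length was removed, 5 members were lower and 2 higher.

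**Figure D1:**
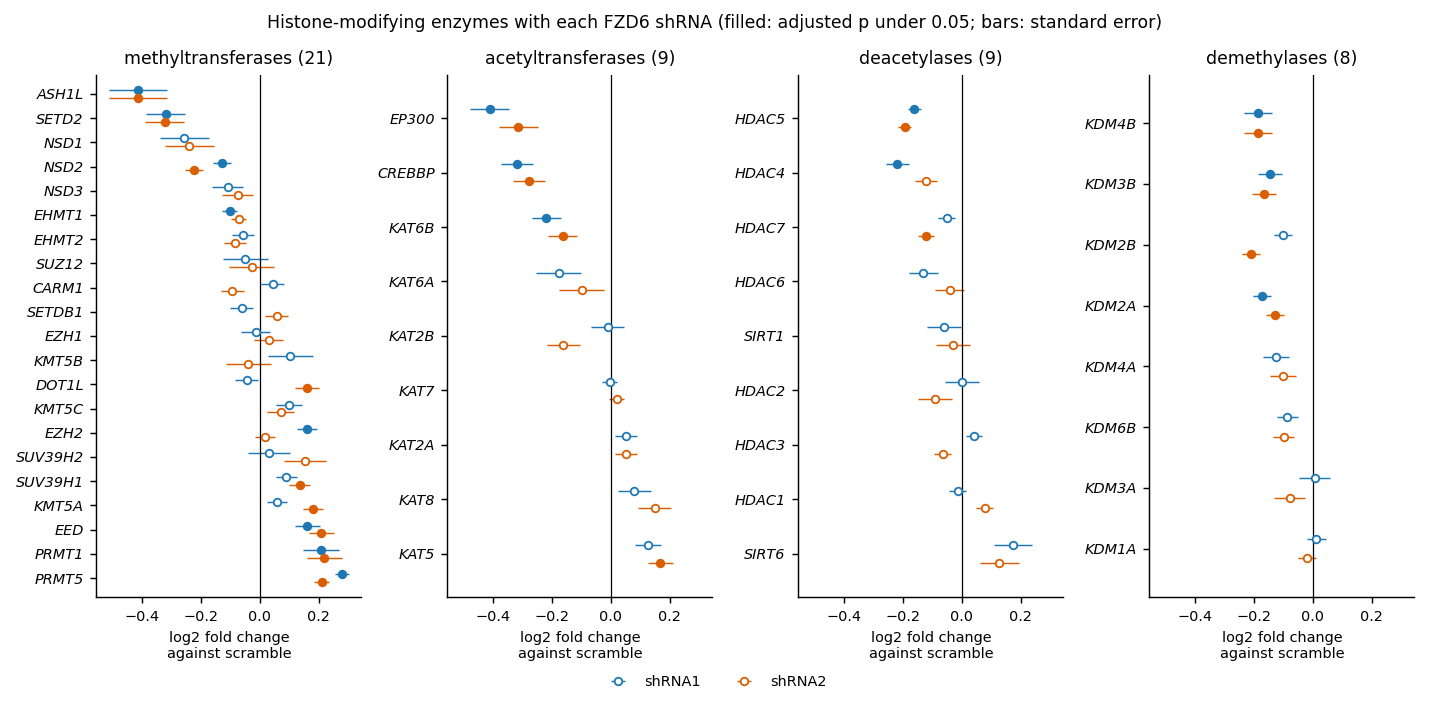
Log2 fold change of each of the 47 enzymes against scramble with shRNA1 (blue) and shRNA2 (orange), one panel per enzyme class, with bars for the standard error and filled points for an adjusted p under 0.05 by limma. The leftmost points are *ASH1L* with either shRNA and *EP300* with shRNA1, at −0.41 each, the filled points of demethylases and deacetylases all lie left of 0, and the rightmost point is *PRMT5* with shRNA1 at 0.28.

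By class, 5 methyltransferases were lower and 4 higher of 21, 3 acetyltransferases were lower and 1 higher of 9, 2 deacetylases were lower of 9, and 4 demethylases were lower of 8. No deacetylase and no demethylase was called higher by limma. At an unadjusted p under 0.05 these numbers were 1 and 0, and the study's criteria called none of either. The median log2 fold change was 0.01 for methyltransferases, −0.09 for acetyltransferases, −0.05 for deacetylases and −0.13 for demethylases, against 0.03 over all tested genes. All 8 demethylases had an estimate below 0, from −0.19 in *KDM4B* to −0.0043 in *KDM1A*, but with the length trend removed those of *KDM1A*, *KDM3A* and *KDM6B* were above 0, at 0.0012, 0.020 and 0.015. The 28 members that were not called had log2 fold changes of −0.14 to 0.15.

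Promoters of the members were read from the RefSeq table of GRCh38.p14, as 250 bases before to 50 bases after the start of each gene. They were found for 42 of the 47 members, including 13 of the 14 that fell and all 5 that rose, and not for *DOT1L*, *KAT8*, *KAT6A*, *HDAC5* and *NSD3*. Their GC content had a median of 68.2%, against 58.3% over 27305 promoters. The GC box GGGCGG, the core of SP and KLF sites, was present on either strand in 28 of 42 (66.7%), against 44.6% of all promoters, and in 9 of the 13 that fell and 2 of the 5 that rose. The letters CCAAT, bound by NFY, were present in 4 of the 13 and 3 of the 5, against 35.7% of all promoters. AAGATGGC, the core of a YY1 site, was present in 5 of the 42 (11.9%), against 3.03% of all promoters, and in 1 of the 13 and 3 of the 5. CCGGAAG (ETS) was present in 4 of the 42 (9.52%, against 10.7%), GCGCATGC (NRF1) in 2 (4.76%, against 3.27%) and GCGGGAA (E2F), which can overlap a GC box, in 5 (11.9%, against 6.56%). TATAAA was found in none of the 42, against 12.0% of all promoters. The 27305 promoters were not chosen by expression, whereas all 42 members passed the filter of 1 FPKM, so the shares come from unlike sets. They were not compared with the promoters of the other tested genes. A match is a description of letters and no evidence that a factor was bound.

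The 150 bases directly before the start are shown, 5′ to 3′ on the strand of the gene and in capitals where a searched motif matches, for the acetyltransferases that fell together and for the methyltransferase that rose the most. *EP300* is at chr22:41092442-41092591 on the plus strand, *CREBBP* at chr16:3880714-3880863 on the minus strand and *PRMT5* at chr14:22929377-22929526 on the minus strand. The capitals in *CREBBP* are GC boxes, the first 2 of which overlap, those in *PRMT5* are ATTGG, the NFY letters read on the other strand, and the window of *EP300* holds no match.
EP300: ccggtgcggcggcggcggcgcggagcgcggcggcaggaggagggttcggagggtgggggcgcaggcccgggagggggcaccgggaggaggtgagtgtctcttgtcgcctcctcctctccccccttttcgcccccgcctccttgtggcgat
CREBBP: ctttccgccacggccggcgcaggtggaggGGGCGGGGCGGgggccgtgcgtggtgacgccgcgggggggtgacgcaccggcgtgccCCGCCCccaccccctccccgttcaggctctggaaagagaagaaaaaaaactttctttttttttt
PRMT5: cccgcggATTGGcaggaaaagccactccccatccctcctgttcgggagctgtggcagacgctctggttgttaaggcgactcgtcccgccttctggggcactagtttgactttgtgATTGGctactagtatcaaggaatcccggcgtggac

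Among methyltransferases of H3K36, 4 of 5 fell. *ASH1L*, which deposits lower methylation states of lysine 36 and is the human relative of a fly Trithorax protein, lies on chromosome 1 from 155335268 to 155563202 in GRCh38. It was at 8.31, 8.95 and 7.77 FPKM in the scramble libraries, 6.11, 6.27 and 5.63 FPKM with shRNA1 and 5.86, 7.11 and 5.16 FPKM with shRNA2. All its knockdown libraries were below all scramble libraries, and its log2 fold change of −0.41 was the lowest among the members (SE 0.080, adjusted p = 0.0102). *SETD2*, on chromosome 3 from 47016436 to 47164840, is the enzyme for trimethylation of lysine 36. It was at 7.37, 7.74 and 6.84 FPKM with scramble, 5.65, 5.79 and 5.55 FPKM with shRNA1 and 5.63, 6.26 and 5.10 FPKM with shRNA2, with all knockdown libraries below all scramble libraries and a log2 fold change of −0.32 (SE 0.055, adjusted p = 0.00664). Removal of the length trend left falls of 0.22 in *ASH1L* (adjusted p = 0.0181) and 0.18 in *SETD2* (adjusted p = 0.00926). *ASH1L* was not called without scramble replicate 2 (adjusted p = 0.0533).

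The NSD enzymes make lower methylation states of lysine 36. *NSD1*, on chromosome 5 from 177131798 to 177300213, was at 8.27, 8.84 and 7.96 FPKM with scramble, 6.69, 7.06 and 6.74 FPKM with shRNA1 and 6.68, 8.06 and 6.15 FPKM with shRNA2. Only shRNA2 replicate 2 reached into the scramble range. The log2 fold change of *NSD1* was −0.25 (SE 0.068, adjusted p = 0.0350), and −0.03 with the length trend removed (adjusted p = 0.567). This call was at the margin, with an adjusted p under 0.05 in 11 of 22 alternative limma fits. *NSD2*, on chromosome 4 from 1871393 to 1982192, is overexpressed through a translocation in multiple myeloma. It was at 27.6, 27.9 and 27.3 FPKM with scramble, 25.1, 25.3 and 25.0 FPKM with shRNA1 and 23.7, 24.3 and 22.6 FPKM with shRNA2. The 3 groups of *NSD2* were apart from each other, and its log2 fold change was −0.18 (SE 0.038, adjusted p = 0.0145), or −0.05 with the length trend removed (adjusted p = 0.464). *NSD3*, the third of the family, was at 8.15, 8.59 and 8.62 FPKM with scramble, 7.89, 7.92 and 7.49 FPKM with shRNA1 and 8.02, 8.57 and 7.36 FPKM with shRNA2, and was not called (log2 fold change −0.09, adjusted p = 0.170).

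*NSD2* and *NSD3* are both listed as long transcripts that encode the catalytic SET domain and short ones that lack it, a comparison chosen after the values were seen. The long entry of *NSD2*, of 1365 codons, was at 21.9, 21.8 and 21.3 FPKM with scramble, 19.5, 19.5 and 19.2 FPKM with shRNA1 and 18.0, 17.7 and 16.8 FPKM with shRNA2. Its short entries, of 647 and 629 codons, summed to 5.95 ± 0.201 FPKM with scramble, 5.71 ± 0.151 FPKM with shRNA1 and 6.04 ± 0.508 FPKM with shRNA2 (SD, n = 3 each). The long entry thus held 78.5% ± 0.620 of *NSD2* with scramble, 77.3% ± 0.578 with shRNA1 and 74.4% ± 1.54 with shRNA2 (SD, n = 3 each). The ratio of long to short differed between knockdown and scramble (two-sided exact permutation test, p = 0.0476, where 0.0119 is the smallest p possible), although the lowest scramble share, 77.93%, was close to the highest knockdown share, 77.91%. For *NSD3*, the long entry of 1437 codons held 32.9% ± 1.07 with scramble, 30.8% ± 0.935 with shRNA1 and 33.5% ± 2.99 with shRNA2 (exact p = 0.679). These shares rest on Cufflinks' division of shared reads among overlapping transcripts. Neither ratio was corrected for transcript length, and whether the length of the entries had a part in them was not tested.

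**Figure D2:**
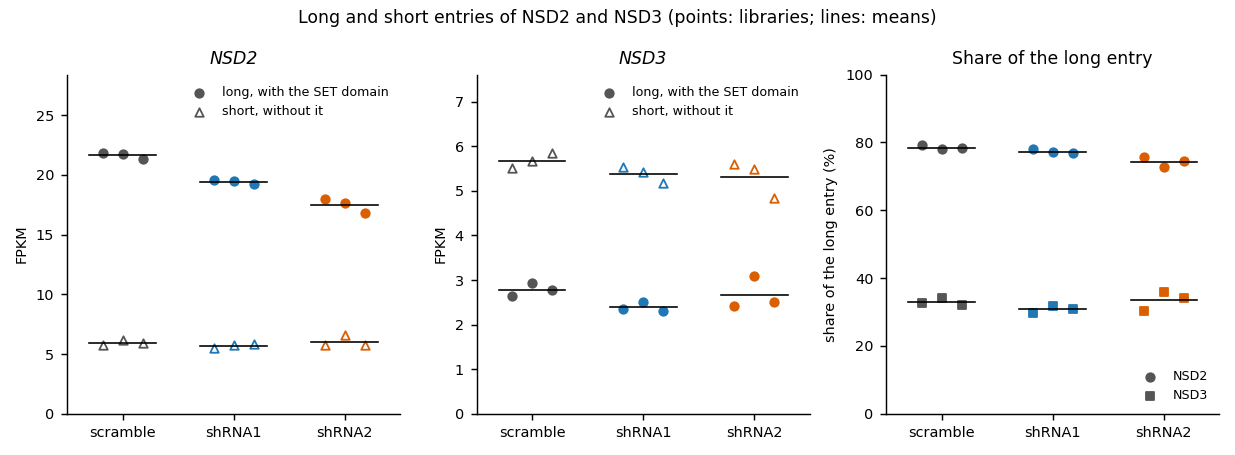
FPKM of the long and short entries of *NSD2* and *NSD3* in each library (points, with lines for the group means) and the share of the long entry in percent. The long entry of *NSD2* steps down from 21.7 to 19.4 and 17.5 FPKM on average with scramble, shRNA1 and shRNA2, while the short entries stay between 5.54 and 6.62 FPKM.

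Of the other lysine methyltransferases, few were called. The 4 PRC2 genes were at 4.08 FPKM (*EZH1*), 14.5 FPKM (*EED*), 18.5 FPKM (*SUZ12*) and 22.2 FPKM (*EZH2*) on average with scramble. *EED* binds trimethylated lysine 27 and stimulates the complex. It lies on chromosome 11 from 86244753 to 86287615 and was at 13.8, 14.7 and 14.9 FPKM with scramble, 17.0, 16.1 and 15.7 FPKM with shRNA1 and 16.4, 17.4 and 16.6 FPKM with shRNA2. All knockdown libraries of *EED* were above all scramble libraries (log2 fold change 0.18, SE 0.038, adjusted p = 0.0130, and 0.0505 with the length trend removed). *EZH2* was at 21.9, 21.8 and 22.9 FPKM with scramble, 24.9, 25.3 and 24.6 FPKM with shRNA1 and 21.6, 23.2 and 22.7 FPKM with shRNA2. It was higher with shRNA1 (log2 fold change 0.16, adjusted p = 0.0192) and not called with shRNA2 (0.02, adjusted p = 0.729), and the difference between the shRNAs did not pass the threshold (−0.14, adjusted p = 0.0507). The log2 fold change was 0.01 for *EZH1* (adjusted p = 0.916), the less active relative of *EZH2*, and −0.04 for *SUZ12* (adjusted p = 0.696).

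The H3K9 methyltransferases moved in both directions. *SUV39H1*, which trimethylates lysine 9 in heterochromatin, rose from an average of 10.8 ± 0.136 FPKM (SD, n = 3) with scramble to 11.8 ± 0.439 FPKM with knockdown (SD, n = 6), with a log2 fold change of 0.11 (adjusted p = 0.0455, or 0.0509 with the length trend removed). *EHMT1*, the partner of *EHMT2* in dimethylation of lysine 9, fell from an average of 16.0 ± 0.142 FPKM (SD, n = 3) with scramble to 15.05 ± 0.307 FPKM with knockdown (SD, n = 6), with a log2 fold change of −0.09 (adjusted p = 0.0376, or 0.0842 with the length trend removed). Both calls were at the margin, with an adjusted p under 0.05 in 8 and 10 of 22 alternative limma fits. *EHMT2*, of whose 33 entries 28 lie on alternate contigs, *SETDB1* and *SUV39H2* were not called, at log2 fold changes of −0.07, −0.0024 and 0.09. No enzyme for H4K20 was called by limma in knockdown, with 1 at an unadjusted p under 0.05: *KMT5A*, which makes monomethylation, *KMT5B* and *KMT5C*, which extend it, had log2 fold changes of 0.12, 0.03 and 0.08, and the study's criteria called none of them.

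The arginine methyltransferases held the largest rises. *PRMT5*, the main enzyme for symmetric arginine methylation, lies on chromosome 14 from 22920529 to 22929376. It was at 68.2, 67.3 and 65.6 FPKM with scramble, 82.5, 80.8 and 81.3 FPKM with shRNA1 and 77.6, 78.7 and 76.7 FPKM with shRNA2. The groups were far apart relative to their spread (log2 fold change 0.24, SE 0.031, adjusted p = 0.00266, and 0.22 with the length trend removed, adjusted p = 0.0043). *PRMT1*, on chromosome 19 from 49676153 to 49688447, was at 144, 133 and 134 FPKM with scramble, 157, 156 and 161 FPKM with shRNA1 and 160, 146 and 172 FPKM with shRNA2. Its lowest knockdown library, shRNA2 replicate 2, was near the highest scramble library (log2 fold change 0.21, SE 0.050, adjusted p = 0.0199), and it was not called without scramble replicate 2 (adjusted p = 0.0865) or 3 (adjusted p = 0.0728). *CARM1*, which methylates H3R17 and transcriptional coactivators, was at 65.8 ± 0.854 FPKM (SD, n = 3) with scramble and 64.7 ± 4.04 FPKM (SD, n = 6) with knockdown, and was not called (adjusted p = 0.771).

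Both members of the p300/CBP pair, the coactivators that acetylate H3K27 at enhancers, fell. *EP300*, on chromosome 22 from 41092592 to 41180077, was at 13.6, 13.9 and 12.9 FPKM with scramble, 9.54, 10.2 and 9.97 FPKM with shRNA1 and 10.3, 11.9 and 9.77 FPKM with shRNA2. *CREBBP*, on chromosome 16 from 3725054 to 3880713, was at 10.7, 10.7 and 10.2 FPKM with scramble, 8.02, 8.24 and 8.41 FPKM with shRNA1 and 8.97, 8.86 and 7.68 FPKM with shRNA2. Neither gene had a knockdown library inside the scramble range. The log2 fold change was −0.36 for *EP300* (SE 0.062, adjusted p = 0.00665) and −0.30 for *CREBBP* (SE 0.047, adjusted p = 0.00492). With the length trend removed, these were −0.19 (adjusted p = 0.0107) and −0.14 (adjusted p = 0.0341). The log2 ratio of *CREBBP* to *EP300* differed by 0.06 between knockdown and scramble (two-sided exact permutation test, p = 0.214).

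**Figure D3:**
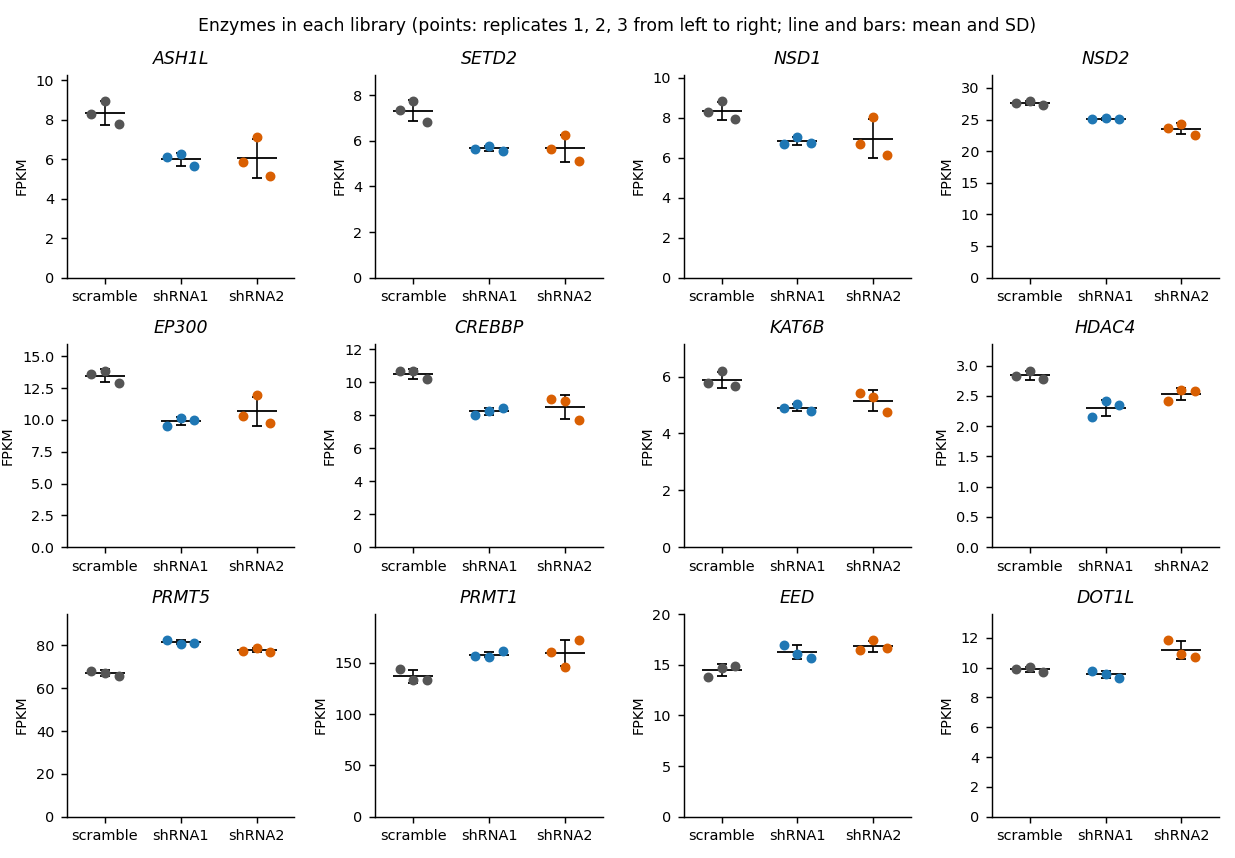
FPKM of 12 enzymes in each library, with points for replicates 1 to 3 from left to right in each group and lines and bars for the mean and SD (n = 3). In *EP300* the scramble libraries lie at 12.9 to 13.9 FPKM and the knockdown libraries at 9.54 to 11.9 FPKM, in *PRMT5* at 65.6 to 68.2 FPKM and 76.7 to 82.5 FPKM, and in *NSD1* and *ASH1L* shRNA2 replicate 2 stands above its group.

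Among the other acetyltransferases, *KAT6B* fell and *KAT5* rose. *KAT6B*, a MYST enzyme that acetylates H3K23, was at 5.77, 6.21 and 5.68 FPKM with scramble, 4.91, 5.03 and 4.79 FPKM with shRNA1 and 5.42, 5.30 and 4.74 FPKM with shRNA2, with no knockdown library in the scramble range (log2 fold change −0.19, SE 0.045, adjusted p = 0.0196, and −0.06 with the length trend removed, adjusted p = 0.232). Of its 32 entries, 16 lie on alternate contigs. Its paralog *KAT6A* was at 6.64 ± 0.309 FPKM (SD, n = 3) with scramble and 5.96 ± 0.571 FPKM (SD, n = 6) with knockdown and was not called (log2 fold change −0.14, adjusted p = 0.175), whereas it was without shRNA2 replicate 2 (adjusted p = 0.0130). *KAT5*, the catalytic subunit of the NuA4/TIP60 complex, went from an average of 26.5 ± 1.39 FPKM (SD, n = 3) with scramble to 29.4 ± 0.874 FPKM with knockdown (SD, n = 6), with a log2 fold change of 0.15 (adjusted p = 0.0297, and 0.0773 with the length trend removed). *KAT2A* and *KAT2B*, the catalytic subunits of SAGA and ATAC complexes, and *KAT7* and *KAT8*, which acetylate histone H3 and H4 lysine 16, had log2 fold changes of 0.05, −0.09, 0.0074 and 0.11 and were not called.

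Of the deacetylases, 2 of 4 class II members were lower and no class I member was called. *HDAC5*, which shuttles between nucleus and cytoplasm, fell from an average of 7.83 ± 0.0734 FPKM (SD, n = 3) with scramble to 6.80 ± 0.117 FPKM with knockdown (SD, n = 6), with a log2 fold change of −0.18 (SE 0.023, adjusted p = 0.00266), and the fall of 0.13 with the length trend removed was called as well (adjusted p = 0.0170). *HDAC4*, of the same subclass, was at 2.83, 2.92 and 2.78 FPKM with scramble, 2.15, 2.41 and 2.35 FPKM with shRNA1 and 2.42, 2.60 and 2.58 FPKM with shRNA2, with no overlap. Its log2 fold change was −0.17 (SE 0.0435, adjusted p = 0.0269) and −0.01 with the length trend removed (adjusted p = 0.878). *HDAC6*, a mainly cytoplasmic enzyme, and *HDAC7* had estimates of −0.09 each and were not called. The class I enzymes *HDAC1* and *HDAC2*, the catalytic subunits of the NuRD, SIN3 and CoREST complexes, and *HDAC3*, that of another corepressor complex, had log2 fold changes of 0.03, −0.04 and −0.01, with 0 of 3 called by limma, 0 at an unadjusted p under 0.05 and 0 by the study's criteria. The NAD-dependent *SIRT1* and *SIRT6* had log2 fold changes of −0.05 (adjusted p = 0.537) and 0.15 (adjusted p = 0.0886).

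Among demethylases, those of the KDM2, KDM3 and KDM4 families fell in part. *KDM2A*, which removes methyl groups from H3K36 and binds unmethylated CpG islands, fell from an average of 41.7 ± 1.26 FPKM (SD, n = 3) with scramble to 37.5 ± 0.901 FPKM with knockdown (SD, n = 6), with a log2 fold change of −0.15 (adjusted p = 0.0112). A non-coding entry held 36.5% of the scramble level of *KDM2A*, which was not called over protein-coding entries alone. *KDM2B*, which recruits a Polycomb complex to CpG islands, was at 5.71, 5.99 and 6.03 FPKM with scramble, 5.52, 5.27 and 5.54 FPKM with shRNA1 and 5.05, 5.01 and 4.85 FPKM with shRNA2. Its groups did not overlap and the shRNA2 libraries were lowest (log2 fold change −0.16, SE 0.042, adjusted p = 0.0322). *KDM4B*, which acts on H3K9, fell from an average of 7.75 ± 0.143 FPKM (SD, n = 3) with scramble to 6.70 ± 0.338 FPKM with knockdown (SD, n = 6), with a log2 fold change of −0.19 (adjusted p = 0.0146). With the length trend removed none of the demethylases was called by limma, with 1 at an unadjusted p under 0.05, and the estimates for *KDM2A*, *KDM2B*, *KDM3B* and *KDM4B* lay between −0.11 and −0.04, the lowest adjusted p among them being 0.0612. *KDM1A* (LSD1), the most abundant demethylase at 49.5 ± 0.921 FPKM (SD, n = 3) with scramble, was at 49.4 ± 1.28 FPKM (SD, n = 6) with knockdown. *KDM4A* and the H3K27 demethylase *KDM6B* had adjusted p of 0.0664 and 0.0629.

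Some transcript entries varied more between libraries than the sum over their gene. *ASH1L* has a main entry of 2964 codons at 6.52, 7.71 and 7.76 FPKM with scramble, 6.11, 5.72 and 5.63 FPKM with shRNA1 and 5.86, 6.46 and 5.15 FPKM with shRNA2. Its other entry went from 0.00623 to 1.78 FPKM among the scramble libraries alone, so that the difference was −0.29 on the log2 scale in the main entry, against −0.41 in the sum. In *CREBBP*, the entries of 2404 and 2442 codons differed by −0.20 and −0.42. In *HDAC5*, the entry of 1123 codons was at 1.87 to 4.17 FPKM in the scramble libraries and at 0.0112 to 4.05 FPKM in knockdown, whereas the summed level stayed within 7.76 to 7.91 FPKM and 6.66 to 6.95 FPKM. In *EP300*, *HDAC4*, *KDM4B*, *EED*, *PRMT1* and *PRMT5*, a single entry held at least 90.1% of the scramble level. Differences between entries were not tested.

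Paralogs were compared in 15 pairs by the ratio of their levels in each library, with two-sided exact permutation tests of 6 against 3 libraries for which 0.0119 is the smallest p possible, and without adjustment over the pairs. The pairs with a p under 0.05 were *KDM3A* with *KDM3B* and *NSD1* with *NSD3*. *KDM3A* and *KDM3B* both remove methyl groups from H3K9. *KDM3A* was at 11.01, 12.1 and 11.5 FPKM with scramble, 11.8, 11.5 and 11.4 FPKM with shRNA1 and 10.6, 11.8 and 10.2 FPKM with shRNA2, and *KDM3B* at 12.5, 12.7 and 12.3 FPKM, 11.1, 11.5 and 11.02 FPKM, and 10.9, 11.8 and 10.5 FPKM. *KDM3B* fell (log2 fold change −0.16, adjusted p = 0.0184) and *KDM3A* was not called (−0.04, adjusted p = 0.644), and the log2 ratio of *KDM3A* to *KDM3B* was higher in every knockdown library than in every scramble library, by 0.12 on average (exact p = 0.0119). The log2 ratio of *NSD1* to *NSD3* was lower by 0.15 in knockdown (exact p = 0.0238). In both pairs the gene that fell is the longer one, at 6813 against 4753.5 bases for *KDM3B* and *KDM3A* and 12543.5 against 7385.5 bases for *NSD1* and *NSD3*. The differences were 0.07 and −0.06 with the length trend removed.

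The length of the transcript, which the list did not use, moved with the change of the members. Across the 47 members Spearman's rho between transcript length and log2 fold change was −0.852 in knockdown, against −0.442 across 11742 genes with a length. The genes share the same 9 libraries and are not independent of each other. All 6 members of 8000 bases or more (*NSD1*, *ASH1L*, *EP300*, *CREBBP*, *HDAC4* and *SETD2*) were called lower, where 35.9% of the 457 genes of this length were. Of the members of 6000 to 8000 bases, 4 of 8 were lower, against 23.7% of genes, and of those of 4000 to 6000 bases 3 of 10, against 14.4%. Among the 7 members under 2000 bases none was called lower by limma, with none at an unadjusted p under 0.05, and *PRMT1* and *EED* were higher, where 22.9% of genes of this length were. The median log2 fold change of members of 8000 bases or more was −0.31, against −0.14 for all genes of this length. The length bins were chosen after the values were seen. An exception was *DOT1L* at 7436 bases, whose estimate was above 0.

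**Figure D4:**
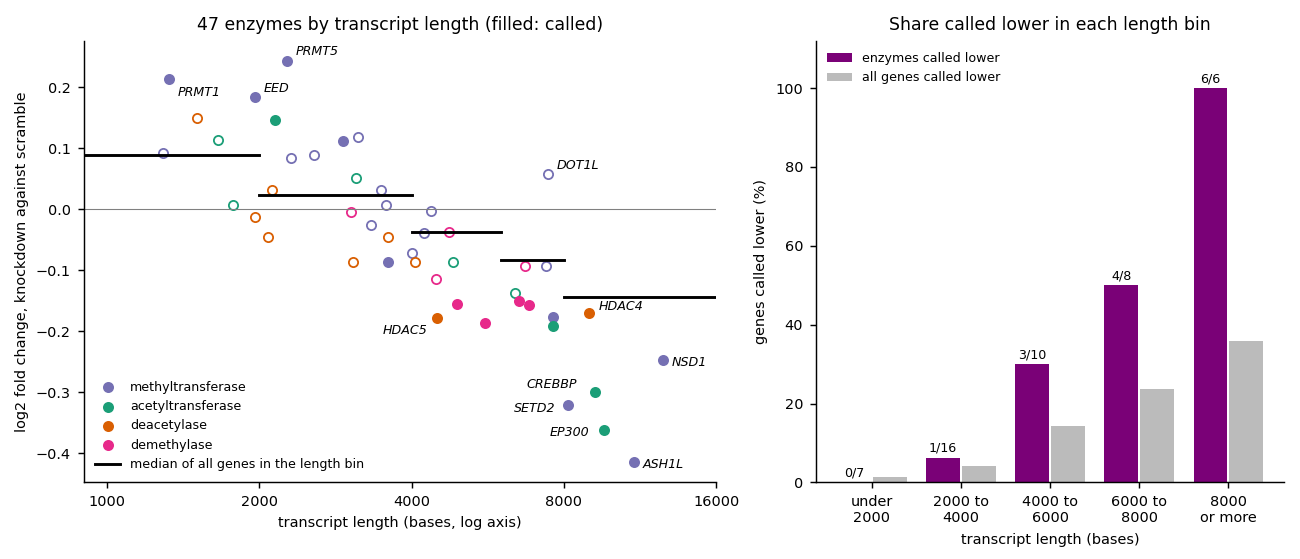
Left, log2 fold change of the 47 enzymes in knockdown against transcript length (log axis, filled points called by limma), with black lines for the median of all genes in each length bin, the outermost bins being drawn to the edges of the axis. Right, percent of enzymes and of all genes called lower in each bin: 6 of 6 enzymes of 8000 bases or more were lower, against 35.9% of all genes.

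After removal of the trend in length from each library, which centres genes of equal length on a common level, 4.36% of 11742 genes were called lower and 10.1% higher. *ASH1L*, *SETD2*, *EP300*, *CREBBP* and *HDAC5* were the 5 members lower and *PRMT1* and *PRMT5* the 2 higher. Spearman's rho across the members was −0.521 after this step. Within groups, too, libraries differed in the long members: replicate 2 was the highest library of its group in 11, 10 and 9 of the 14 members of 6000 bases or more in scramble, shRNA1 and shRNA2. The same count was not made over all genes of this length, so it cannot be called particular to the enzymes. In shRNA2 replicate 2 these members were 0.07 above the mean of their group by the median log2 deviation, and in shRNA2 replicate 3 0.10 below it. Without shRNA2 replicate 2, 21 members were called in knockdown, 16 lower and 5 higher. Calls over all genes rose as well, from 888 to 1228 lower and from 1690 to 2027 higher. Whether RNA integrity or library preparation had a part in this was not tested.

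The shRNAs were also compared with scramble one by one, in contrasts that share the scramble libraries. With shRNA1, 12 members were lower and 4 higher, where 7.19% of all genes were lower and 11.7% higher. With shRNA2, 12 were lower and 7 higher, where 11.4% of all genes were lower and 15.3% higher. The log2 fold changes with shRNA1 and shRNA2 were −0.41 and −0.41 for *ASH1L*, −0.32 and −0.32 for *SETD2*, −0.41 and −0.31 for *EP300*, −0.32 and −0.28 for *CREBBP*, and 0.28 and 0.21 for *PRMT5*. *KMT5A* was called higher with shRNA2 (0.18, adjusted p = 0.00911) and not with shRNA1 (0.06, adjusted p = 0.276), and the difference did not pass the threshold (adjusted p = 0.0787). For shRNA1, 6 members were called when any one of the shRNA1 libraries, scramble replicate 1 or scramble replicate 2 was left out. Without scramble replicate 3, 10 were called. Over all genes, 2357 were called with shRNA1, 917 to 1160 under the first omissions and 1470 without scramble replicate 3. The shRNA2 count was 12, 11 and 12 without scramble replicates 1, 2 and 3. Over all genes it was 2222, 2097 and 2437, against 3335 with all libraries.

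Between the shRNAs, 1 member was called, where 4.79% of all genes were lower and 1.92% higher with shRNA2 than with shRNA1. *DOT1L*, the enzyme for H3K79 methylation, lies on chromosome 19 from 2163933 to 2232578. It was at 9.93, 10.02 and 9.67 FPKM with scramble, 9.80, 9.54 and 9.28 FPKM with shRNA1 and 11.8, 10.9 and 10.7 FPKM with shRNA2. The shRNA2 libraries were above all others, and the log2 difference between shRNA2 and shRNA1 was 0.21 (SE 0.046, adjusted p = 0.0242). It was not called without any one of the shRNA1 libraries (adjusted p = 0.0590, 0.0830 and 0.0925 without replicates 1, 2 and 3) or with the length trend removed (adjusted p = 0.0520). Without any alternative setting, no member was called lower with shRNA2 than with shRNA1 by limma, and 8 had an unadjusted p under 0.05. The study's criteria called none lower either. Several alternative settings called more members between the shRNAs, as counted in the last section.

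Partner proteins of these enzymes were followed in 6 lists, whose counts stand against 7.1% lower and 13.5% higher among all genes. Of 20 tested subunits of deacetylase corepressor complexes, 6 were lower and 2 higher, with a median log2 fold change of −0.08. They included *PHF21A* of the CoREST complex (log2 fold change −0.21, adjusted p = 0.04003) and *MIDEAS* of the mitotic deacetylase complex (−0.19, adjusted p = 0.0120). With the length trend removed, limma called 0 of the 19 that had a length, while 4 lower and 2 higher had an unadjusted p under 0.05, and *PHF21A* had an adjusted p of 0.0501. Of 36 tested subunits of acetyltransferase complexes, 2 were lower and 4 higher. *TRRAP*, the scaffold that *KAT5* and *KAT2A* complexes share, fell from an average of 7.58 ± 0.467 FPKM (SD, n = 3) with scramble to 5.47 ± 0.438 FPKM with knockdown (SD, n = 6), with a log2 fold change of −0.41 (adjusted p = 0.00415), while *MORF4L1* and *YEATS4* of the NuA4 complex rose by 0.33 and 0.21 (adjusted p = 0.00245 and 0.00573). With the length trend removed these were −0.19, 0.27 and 0.14, and all 3 genes were called.

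Of 20 PRC1 subunits, which read the PRC2 mark and ubiquitylate histone H2A, 2 were lower and 3 higher, against 7.1% and 13.5% of all genes. *BCORL1* (log2 fold change −0.37, adjusted p = 0.000694) and *BCOR* (−0.23, adjusted p = 0.00345), scaffolds of variant PRC1 that contains *KDM2B*, fell, and *PHC2* of canonical PRC1 rose by 0.21 (adjusted p = 0.00401). All 3 were also called with the length trend removed (adjusted p = 0.00759, 0.0181 and 0.00635). Of 9 accessory subunits of PRC2, *RBBP7* was called (0.09, adjusted p = 0.0495). Of 11 readers and partners of H3K9 methylation, *CBX5*, the gene of the heterochromatin protein HP1α, and *MORC2* were lower (−0.16 and −0.14, adjusted p = 0.0131 and 0.0266). Of 24 other writers and erasers of histone marks, 1 was lower and 2 higher, which were *PHF2* (−0.15, adjusted p = 0.0214), an H3K9 demethylase, *HAT1* (0.24, adjusted p = 0.00960), which acetylates newly made histone H4, and *PRMT3* (0.18, adjusted p = 0.0359). With the length trend removed *CBX5* and *HAT1* were called (adjusted p = 0.0136 and 0.0392), and *RBBP7*, *MORC2*, *PHF2* and *PRMT3* were not (adjusted p = 0.170, 0.0740, 0.140 and 0.0836).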

How the data were processed

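RNA was measured in 9 libraries of DU145 cells, 3 per group, grouped by their labels. The authors prepared stranded mRNA libraries, sequenced them on an Illumina HiSeq, mapped the reads with STAR and computed FPKM with Cufflinks. The versions are not given in the sources used here. The submitters' processing notes name hg38, to which the loci in the tables belong, and the methods name another build. The deposited tables hold FPKM for 83497 transcript entries with confidence bounds. The counts of reads are not used here, and depth was estimated from these bounds.

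Of 73240 accessions, 72645 were matched to a gene in RefSeq GRCh38.p14, and FPKM were summed per gene, alternate contigs included. FPKM divides by transcript length, which does not correct for a difference between libraries in the coverage of long transcripts. Whether these libraries differed in this way was not tested. Transcript lengths and GC contents were those of GENCODE transcripts paired to RefSeq ones, and were available for all 47 members. The length trend was removed per library with a lowess curve of span 0.3. Values of log2(FPKM + 1) for genes averaging 1 FPKM or more were tested with limma 3.58.1 in R 4.3.3, without covariates, as 6 knockdown against 3 scramble libraries and, for each shRNA, in a model of 3 groups. A fold change on this scale understates the change of genes of low level. The code was tested on simulated data with 200 changed genes. Ratios of paralogs and of entries were compared with exact permutation tests (Python 3.11.15, SciPy 1.17.1).

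The study's criteria were a p under 0.01 by an unmoderated test and a change of at least 1.2-fold. They were applied here to the summed values of the 12509 tested genes, of which they called 223 lower and 138 higher in knockdown. Both numbers are smaller than those the study reports, so a gene not called here may be among the study's genes. Members with values in every library were those called by limma with a log2 change of at least 0.2 in size in a contrast, and paralogs that the text compares. At most 3 called genes were named per list of partners. Some genes of the lists are not reported here. Values for other members are short ones. The members, lists and tests were chosen with earlier results of these data known. Replicate numbers were not taken as pairs, since same-numbered libraries correlated at only −0.07 to 0.11 over all tested genes. Scramble replicate 1 and shRNA1 replicate 3, which have unlike numbers, correlated at 0.18.

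Alternative settings were median centring, quantile normalization, removal of the length or GC trend, the replicate number as a block with and without removal of the length trend, the study's criteria, primary chromosomes alone, protein-coding accessions alone, an intensity trend in the variance, omission of each library, pseudocounts of 0.1 or 0.01, and either a filter at 5 FPKM or no filter at all.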

Additional observations from a re-analysis of the deposited data

Results flagged for a closer look

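In 4 of the 47 enzymes and *FZD6* (48 measures tested), 1 of the 6 knockdown libraries stood far from the others by Dixon's criterion, which chance meets in about 1 of 20 measures, or 2.4 of 48. The library was shRNA2 replicate 2 in all 4, where it was the highest, at 11.9 FPKM for *EP300*, 7.05 FPKM for *KAT6A*, 20.7 FPKM for *SUZ12* and 13.4 FPKM for *SUV39H2*. Without this library the log2 fold change of *EP300* in knockdown was −0.40, against −0.36 with it. *DOT1L* differed between the shRNAs, with a log2 difference of 0.21 between shRNA2 and shRNA1 (limma adjusted p = 0.0242). The level of *FZD6* also differed between the shRNAs (log2 difference −0.25 for shRNA2 minus shRNA1, limma adjusted p = 0.0273).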

How the results depend on the processing

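*SETD2*, *EP300*, *HDAC5* and *PRMT5* were called in knockdown under all 22 alternative limma fits, and none of the 19 called members changed direction under an alternative. In knockdown, 19 members were called (14 lower, 5 higher). With the length trend removed 7 were (5 lower, 2 higher), and 5 (4 lower, 1 higher) with the replicate block as well. The study's criteria called 4 (4 lower, 0 higher: *SETD2*, *ASH1L*, *CREBBP* and *EP300*), and 3 were higher with quantile normalization. Over all genes, 888 were lower and 1690 higher. These became 512 and 1191 with the length trend removed, and 405 and 941 with the replicate block as well. They were 223 and 138 by the study's criteria, and 1058 and 1047 with quantile normalization. Omission of 1 library gave 6 to 21 members called, 4 to 16 lower and 2 to 5 higher, and 997 to 3255 of all genes called. For shRNA1 (16 called), 7 were called with the length trend removed, 5 with the replicate block as well and 5 by the study's criteria. Omission of 1 library gave 6 to 21. Over all genes these numbers were 1642, 1576, 450 and 917 to 3538, against 2357. For shRNA2 (19 called), 0 passed the study's criteria and 11 to 27 were called on omission of 1 library. Over all genes these numbers were 590 and 2097 to 4195, against 3335. Between the shRNAs (1 called), 2 were called without a filter, 3 with a filter of 5 FPKM, 2 with median centring, 4 with the length trend removed, 5 with the GC trend removed, 2 with the replicate block and the length trend removed, 3 with an intensity trend, 0 by the study's criteria, and 0 to 5 on omission of 1 library. Over all genes, in the same order, 846, 807, 889, 1134, 1407, 1041, 878, 268 and 333 to 1172 were called, against 839. The median of demethylases was −0.046 with the length trend removed, with and without the replicate block, and −0.11 over protein-coding accessions, against −0.13, and that of deacetylases was −0.089 to −0.026 on omission of 1 library (scramble replicates 1 and 2), against −0.046. The cause of these changes was not tested. The replicate block alone, where same-numbered libraries correlated at −0.07 to 0.11, gave 16 members in knockdown (12 lower, 4 higher). The limit of depth was a counting error of at most 5.59% per member and library.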
